A study of Homo sapiens with 9 samples.

Results

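LN229 cells that had been given 500 µM Na-formate for 24 h were compared with untreated LN229 cells taken at 0 h. LN229 is an established human glioblastoma line. The comparison used 6 of the 9 RNA sequencing libraries of the study, 3 untreated and 3 of 24 h, chosen by the time and treatment in their labels. The other 3 libraries came from cells given the same formate dose for 8 h and are used for the spread between replicates and for side-by-side values. All groups grew in the same medium, which held glucose at 17 mM, glutamine at 2 mM and serum at 10%, and the labels name no genetic change in any of them. The untreated cells were taken at 0 h, so 24 h of formate and 24 h of further time in culture cannot be told apart. The labels do not say whether replicates came from separate cultures, so the p-values measure the spread between these libraries, which may be technical.

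Formate is a small carboxylate that cells attach to tetrahydrofolate, and the carbon it carries enters purines, thymidylate and methionine. Cholesterol and fatty acid synthesis are controlled by the sterol regulatory element-binding proteins (SREBPs), which SCAP escorts from the endoplasmic reticulum when sterols are low and which INSIG proteins hold back when sterols are high. Genes of mitosis are transcribed late in the cell cycle, and many of their promoters carry a cell cycle homology region, bound by the repressing DREAM complex and by FOXM1-containing activators, and CCAAT boxes, bound by NF-Y.

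Total counts were 22222298 to 25848242 per library over the whole series. Of 23727 genes in the table, 15273 had enough counts to be tested. Levels are given in CPM after scaling of library sizes, and log2 fold changes are those fitted by edgeR, 24 h minus 0 h, with their standard errors. A gene is called when its adjusted p is under 0.05 in edgeR's quasi-likelihood test over all genes tested. Of 9 glioma and neural markers chosen, NES, VIM, CD44, SOX2 and EGFR were expressed in all 6 libraries, whereas GFAP, an astrocyte filament, had at most 7 counts in any of them. S100B had 84.5 to 395 CPM, OLIG2 was low at 6.59 to 13.0 CPM, and SOX9 was close to absent at 0.424 to 1.16 CPM. Of 5 epithelial markers the cadherin CDH1 had 0 counts and EPCAM and KRT19 at most 1, while the keratins KRT8 and KRT18 were present. The 3 leukocyte markers in the table, of 6 chosen, summed to 0.270 to 0.619 CPM in untreated cells and 0.415 to 0.508 CPM at 24 h. Fibroblast markers summed to 42.1 to 59.0 CPM in untreated cells and 67.0 to 90.9 CPM at 24 h, mostly LUM, and endothelial markers to 0.424 to 0.707 CPM and 1.16 to 1.87 CPM, mostly VWF. All 6 fibroblast markers were in the table and 3 of the 4 endothelial ones, and the part of other cells in the results was not tested.

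The 3 replicate numbers did not behave alike, and untreated replicate 1 stood apart from the other untreated libraries. The chi-square per degree of freedom between libraries was 57.6 and 60.5 for untreated replicate 1 against replicates 2 and 3, but 8.62 between replicates 2 and 3. Deviations from group means correlated at 0.367, 0.164 and 0.251 between same-numbered 0 h and 24 h libraries (replicates 1, 2 and 3). Untreated replicate 3 correlated at 0.270 with 24 h replicate 2, which is above the same-number values of both replicates. Pairing by number was thus clearest for replicate 1, and for replicates 2 and 3 it was an assumption. All results with the block rest on it. The counts of called members are given for the fit without the replicate number as a block and, as "with the block", for the fit with it. A list's counts with the block are to be read against the larger share of all genes called in that fit, 12.6% higher and 11.6% lower.

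After 24 h, 649 of the 15273 tested genes were called (4.25%), 378 of them higher (2.47%) and 271 lower (1.77%). Called changes had a median size of 0.78 (log2), and their standard errors a median of 0.16. Changes of at least 2-fold were called in 202 genes (1.32%), 128 higher and 74 lower. With the block, 3687 genes were called (24.1%), 1921 higher (12.6%) and 1766 lower (11.6%), all 649 were among them, and 485 changed at least 2-fold (3.18%). Replicates of the groups did not overlap in 4621 genes (30.3%). The rule by which genes were named required this, so their lack of overlap below is a description and no further support. Leaving out 24 h replicate 2 or 24 h replicate 3 ended every call without the block, with 2550 and 2563 genes still at an unadjusted p under 0.05, while 2518 and 2482 genes were called with it. Dropping untreated replicate 1 left 356 calls, dropping untreated replicate 3 left 418, and dropping 8 h replicate 3, whose spread enters the test, left 284. Fitting the 6 libraries alone gave 124 calls, and leaving out replicate 1 of all groups gave 2616. The plot of all tested genes shows calls without the block on both sides of 0 at all levels of expression.

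**Figure D1:**
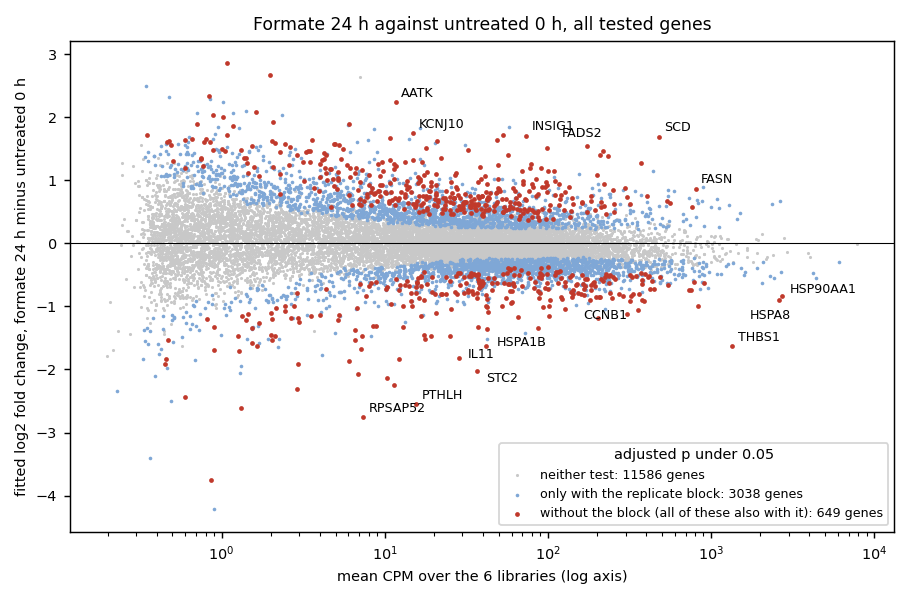
Fitted log2 fold change, formate 24 h minus untreated 0 h, against the mean CPM over the 6 libraries (log axis), a point for each of the 15273 tested genes. Red points are the 649 genes called without the replicate block, blue points the genes called only with it, and labels mark genes described in the text.

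Protein-coding genes made up 620 of the called genes, which is 4.91% of the 12630 tested. Among 1840 long noncoding genes tested, 23 were called (1.25%), 5 higher and 18 lower. The share called also depended on level, with 1.35% at a mean CPM of 0 to 1, 3.35% at 1 to 5 and 5.32% at 5 to 20. The gene classes were not compared at like levels. Transcripts of the called-higher genes summed to 12343, 16190 and 15501 CPM in untreated replicates 1, 2 and 3, and to 23424, 25619 and 27194 CPM at 24 h. Those of the called-lower genes summed to 50944, 39720 and 38960 CPM, and to 28663, 25247 and 22321 CPM at 24 h. Untreated replicate 1 was the lowest untreated library for 314 of the 378 called-higher genes and the highest for 230 of the 271 called-lower genes. It thus lay on the side away from 24 h for most of them. The ratio within the replicate pair was largest in pair 1 for 339 of the called genes, in pair 3 for 251 and in pair 2 for 59. Over all tested genes, the standard deviation of this log2 ratio had the same order, at 0.60, 0.47 and 0.41 in pairs 1, 3 and 2. These counts were not made over all tested genes, so they cannot be read as particular to the called ones.

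Several transcripts for building cholesterol rose. Of 20 tested genes of sterol synthesis, 8 were called higher and 0 lower, beside 2.47% of all genes tested that were called higher. The median change of the list was 0.44, and that of all genes tested 0.01. The called members spanned the pathway from the first committed steps to the last reductase. HMGCS1, the synthase that makes HMG-CoA (chr5:43289395-43313512, minus strand), had 44.5, 57.2 and 66.1 CPM in untreated replicates 1, 2 and 3 and 105, 121 and 115 CPM at 24 h. Every 24 h library was above every untreated library, and the log2 fold change was 1.02 ± 0.15 (edgeR adjusted p = 0.0167). Another gene overlaps 15% of its exonic bases on the opposite strand, and the counting strand is not given in the sources used here. SQLE, the epoxidase that prepares squalene for ring closure, went from 45.1, 50.1 and 52.6 CPM to 75.7, 88.0 and 86.8 CPM, again without overlap (0.76 ± 0.11, edgeR adjusted p = 0.0167). DHCR7, the reductase that completes cholesterol (chr11:71428193-71452868, minus strand), went from 59.5, 69.9 and 74.2 CPM to 121, 125 and 131 CPM. Its 3 untreated libraries and its 3 libraries of 24 h were each close together, and its change of 0.89 ± 0.10 had the smallest p of the list (edgeR adjusted p = 0.0149).

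Between these steps, the isomerase IDI1 changed by 0.94 ± 0.15, the squalene synthase FDFT1 by 0.71 ± 0.12, the lanosterol synthase LSS by 0.43 ± 0.09, the sterol methyl oxidase MSMO1 by 1.02 ± 0.16 and the decarboxylase MVD by 0.62 ± 0.16. The opposite-strand overlap was 14.8% of exonic bases for IDI1 and 7.88% for LSS. CYP51A1, the lanosterol demethylase, and SC5D, a desaturase near the end of the pathway, were called only with the block (edgeR adjusted p = 0.0121 and 0.0221), which called 11 members in all. Among enzymes called in neither fit, FDPS, which makes farnesyl diphosphate, had 218, 166 and 171 CPM and 202, 204 and 213 CPM, and the isomerase EBP and the kinase PMVK had negative fitted changes (-0.33 and -0.15).

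Of 15 tested genes of sterol uptake and SREBP control, 4 were called higher without the block and 6 with it, and 0 lower in either, with a median of 0.15. SREBF2, which encodes SREBP-2, had 97.9, 139 and 150.3 CPM in the untreated replicates and 266, 267 and 289 CPM at 24 h (1.08 ± 0.16, edgeR adjusted p = 0.0167). The 3 values of 24 h lay close together, all above the highest untreated value, and untreated replicate 1 was the lowest. SREBF1, which encodes the SREBP-1 proteins of fatty acid synthesis, had 52.5, 78.9 and 88.9 CPM and 153, 139 and 148 CPM (1.0 ± 0.21, edgeR adjusted p = 0.0311), with 6.92% of its exonic bases overlapped on the opposite strand. INSIG1, the sterol-responsive protein that holds SCAP in the endoplasmic reticulum (chr7:155297776-155310235, plus strand), went from 20.7, 35.8 and 46.9 CPM to 108, 109 and 121 CPM. It was among the 10 largest rises of called genes with a mean of at least 5 CPM (1.71 ± 0.30, edgeR adjusted p = 0.0202). STARD4, which carries cholesterol between membranes, changed by 0.90 ± 0.20. SCAP itself (-0.03), INSIG2 (-0.12) and the proteases MBTPS1 (0.19) and MBTPS2 (-0.02), which release active SREBPs, were not called in either fit.

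The SREBF2 promoter is shown because it was the only called gene of 3 lipid lists whose upstream sequence held the sterol regulatory element searched. The search covered 250 bases upstream of the gene start in the RefSeq promoters of GRCh38.p14, on both strands, for the letters TCACNCCAC. Of the 20 called members of the sterol synthesis, SREBP control and fatty acid synthesis lists, 17 had a promoter in the table and 1 held a match, SREBF2. Of 43 tested members with a promoter 2 held one, the other being MID1IP1, a regulator of acetyl-CoA carboxylase, and of all tested genes with a promoter 1.13%. The 150 bases before the gene start, at chr22:41832955-41833104 on the plus strand, are printed with the match in capitals.
SREBF2: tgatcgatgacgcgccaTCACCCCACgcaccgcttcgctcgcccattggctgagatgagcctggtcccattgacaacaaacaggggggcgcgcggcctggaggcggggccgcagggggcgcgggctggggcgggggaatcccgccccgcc
The match began 133 bases before the gene start. That the other promoters held no match says only that these letters are not in that window.

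Fatty acid synthesis and desaturation moved in the same direction, with 8 of 18 tested members called higher, 0 lower and a median change of 0.48. SCD, the desaturase that makes oleate (chr10:100347124-100364834, plus strand), had 139.6, 258 and 279 CPM in untreated replicates 1, 2 and 3 and 656, 769 and 766 CPM at 24 h. The lowest 24 h library was more than 2-fold above the highest untreated one, and the change was 1.70 ± 0.25 (edgeR adjusted p = 0.0167). FADS2, the first desaturase of polyunsaturated fatty acid synthesis, went from 73.1, 98.3 and 97.2 CPM to 218, 279 and 283 CPM (1.54 ± 0.16), and its adjusted p of 0.0108 in edgeR's test was the lowest in these lists. FASN, the fatty acid synthase (chr17:82078333-82098332, minus strand), went from 492, 558 and 665 CPM to 997, 1033 and 1095 CPM (0.87 ± 0.13, edgeR adjusted p = 0.0167). SCD and FASN were also among the 5 largest rises in mean CPM. ACACA, the carboxylase that makes malonyl-CoA, changed by 0.77 ± 0.13, ACSS2, which activates acetate, by 0.84 ± 0.19, and FADS1, the partner desaturase of FADS2, by 0.54 ± 0.09. The elongase ELOVL2 changed by 0.68 ± 0.15 and SCD5, another stearoyl-CoA desaturase, by 0.62 ± 0.15. ACLY, which makes cytosolic acetyl-CoA from citrate, had 233, 226 and 233 CPM and 299, 301 and 290.4 CPM and was called only with the block (edgeR adjusted p = 0.00915). ELOVL1, which elongates very long chains, was the 1 member called lower with the block (-0.50), against 12 called higher.

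**Figure D2:**
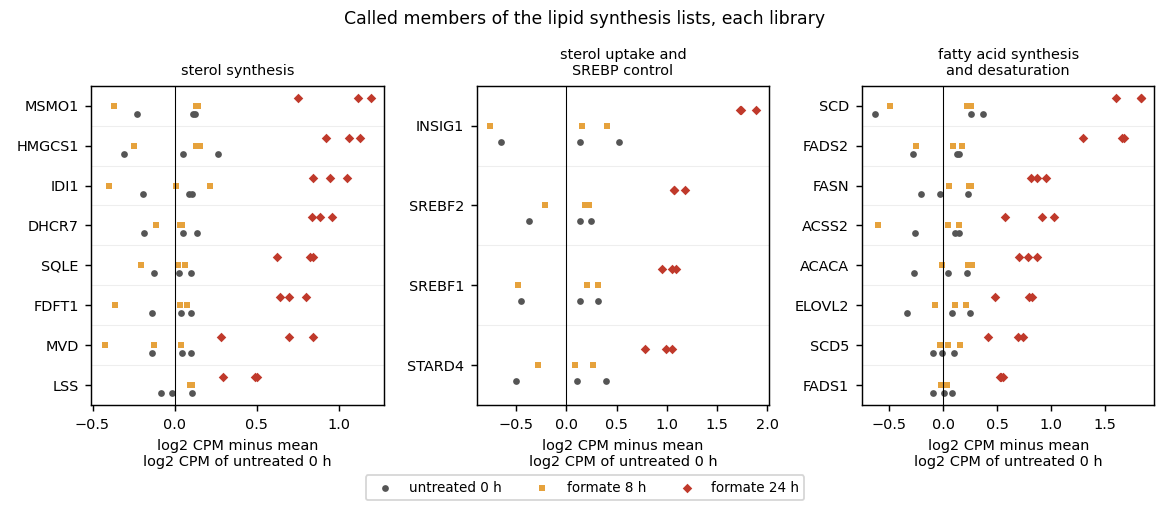
Log2 CPM of each library minus the mean log2 CPM of the untreated libraries, for the called members of 3 lipid lists, with a point per library for untreated 0 h, formate 8 h and formate 24 h. In all 20 genes the 3 libraries of 24 h lie to the right of the 3 untreated ones, and the 3 libraries of 8 h lie to the left of those of 24 h.

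Lipid genes outside synthesis went both ways. SCARB1, the HDL receptor (158, 176 and 161 CPM and 239, 258 and 282 CPM, 0.65 ± 0.11, edgeR adjusted p = 0.0199), and ABCG1, a sterol exporter (0.99 ± 0.20), were the 2 called higher of 10 tested targets of the sterol sensor LXR, of which 1 was called lower; with the block 4 were higher and 1 lower. Among 22 genes of fatty acid uptake and oxidation, 2 were called higher and 1 lower, and 8 and 1 with the block. FABP7, the fatty acid-binding protein of neural progenitors and glia, went from 44.2, 50.2 and 45.4 CPM to 86.8, 109.8 and 136 CPM (1.25 ± 0.18, edgeR adjusted p = 0.0167). Of the fatty acid transport proteins, SLC27A1 rose (0.57 ± 0.14) and SLC27A4 fell (-0.68 ± 0.15). PLIN3, a coat protein of lipid droplets, went from 141, 120.4 and 112 CPM to 83.4, 73.6 and 69.0 CPM (-0.72 ± 0.11), with 17.8% of its exonic bases overlapped on the opposite strand. GPAT3, an acyltransferase of triglyceride synthesis, went from 210.0, 159 and 174 CPM to 116, 101 and 86.2 CPM (-0.84 ± 0.15, edgeR adjusted p = 0.0202). These were the 2 called of 15 tested triglyceride and droplet genes without the block. With it 2 were called higher and 2 lower, beside 12.6% and 11.6% of all genes, and the list median was -0.12.

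Among the 10 largest rises of called genes with a mean of at least 5 CPM and no overlap between the groups were AATK, KCNJ10, SOX8, GNG7, KCNA2, TLX1 and CMTM5. AATK, a kinase of neural tissue (chr17:81117295-81166077, minus strand), had the largest rise reported here, with 1.70, 4.89 and 5.62 CPM untreated and 15.1, 17.9 and 25.0 CPM at 24 h (2.24 ± 0.42, edgeR adjusted p = 0.0253). KCNJ10, the inward-rectifier potassium channel of astrocytes and oligodendrocytes, had 3.30, 11.3 and 5.80 CPM and 14.8, 29.3 and 25.4 CPM (1.75 ± 0.42). SOX8, a transcription factor of the SOXE family of glial development, had 11.6, 32.1 and 27.7 CPM and 59.0, 70.0 and 94.3 CPM (1.64 ± 0.39). In each of these the highest untreated library stayed below the lowest one of 24 h, and untreated replicate 1 was the lowest library. GNG7, a G protein gamma subunit, went from 17.8, 32.5 and 24.3 CPM to 57.1, 81.3 and 107 CPM (1.72 ± 0.30, edgeR adjusted p = 0.0202). The potassium channel KCNA2 changed by 1.68 ± 0.40, the homeobox factor TLX1 by 1.62 ± 0.34 (10.8% opposite-strand overlap) and CMTM5, a membrane protein found in myelin, by 1.56 ± 0.39. MARCKSL1, a substrate of protein kinase C at the plasma membrane, rose by one of the 5 largest amounts in CPM, from 174, 266 and 213 CPM to 434, 495 and 646 CPM (1.27 ± 0.22, edgeR adjusted p = 0.0199).

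In the list of astrocyte and neural stem cell genes, 5 of 15 tested members were called higher and 1 lower, and 8 and 3 with the block. S100B, a calcium-binding protein of glia, had 84.5, 177 and 129 CPM and 289, 335 and 395 CPM (1.38 ± 0.34, edgeR adjusted p = 0.046). The glutamate transporter SLC1A3 changed by 1.58 ± 0.32 from a level under 2 CPM in untreated cells, and ID4, an inhibitor of basic helix-loop-helix factors, by 0.80 ± 0.16. GJA1, the main gap junction protein of astrocytes, went the other way, from 55.8, 59.8 and 56.0 CPM to 30.1, 36.9 and 35.5 CPM (-0.74 ± 0.10, edgeR adjusted p = 0.0167). A list of genes of myelinating glia was written after these values were seen and is given as a description. Of its 23 tested members, 8 were called higher and 1 lower (15 and 1 with the block), and the median change was 0.84. MYRF, a transcription factor of myelination (chr11:61752642-61788518, plus strand), had 4.34, 7.55 and 8.23 CPM in untreated replicates 1, 2 and 3 and 12.7, 14.9 and 20.9 CPM at 24 h (1.26 ± 0.27, edgeR adjusted p = 0.0306). ENPP2, which makes lysophosphatidic acid, changed by 0.95 ± 0.14, the receptor GPR37 by 1.02 ± 0.22, the receptor phosphatase PTPRZ1 by 0.95 ± 0.20 and the gap junction protein GJB1 by 1.05 ± 0.24. PMP22, a protein of peripheral myelin, fell by 0.53 on the log2 scale (SE 0.13). SOX10, the lineage factor upstream of many of these genes, was highly expressed and not called in either fit (1007, 994 and 1019 CPM and 1034, 1029 and 1173 CPM, 0.10 ± 0.10). MAG, an adhesion protein of myelin, and from the astrocyte list PDGFRA, the growth factor receptor of oligodendrocyte progenitors, were called higher only with the block (edgeR adjusted p = 0.00196 and 0.000956). MOG, a late myelin protein, stayed at or below 0.82 CPM in all 6 libraries.

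**Figure D3:**
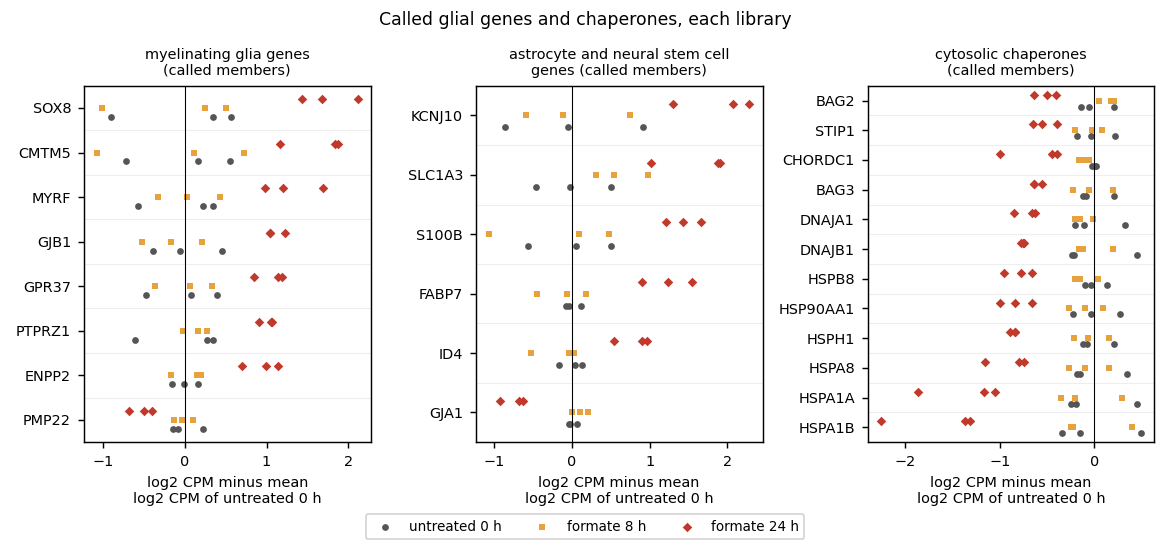
Log2 CPM of each library minus the mean log2 CPM of the untreated libraries for called genes, those reported here, of myelinating glia, of astrocytes and neural stem cells, and of cytosolic chaperones, with a point per library for untreated 0 h, formate 8 h and formate 24 h. The 24 h points lie right of the untreated points for the glial genes except PMP22 and GJA1, and left of them for the 12 chaperones.

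Many transcripts of mitosis fell. Of 33 tested genes of mitotic entry and exit, 15 were called lower and 0 higher, beside 1.77% of all genes tested that were called lower, and the median change was -0.61. With the block, 28 were called lower and 0 higher. In bulk RNA, fewer cells in mitosis and less of these transcripts per cell cannot be told apart. CCNB1, the cyclin that drives cells into mitosis (chr5:69167010-69178245, plus strand), had 612, 477 and 439 CPM in untreated replicates 1, 2 and 3 and 334, 255 and 225 CPM at 24 h (-0.91 ± 0.16, edgeR adjusted p = 0.0215). PLK1, the polo kinase of mitosis, had 425, 350.2 and 340.3 CPM and 262, 201 and 166 CPM (-0.83 ± 0.16), with 12.5% of its exonic bases overlapped on the opposite strand. CDC20, which activates the anaphase-promoting complex, had 603, 452 and 427 CPM and 325, 251 and 221 CPM (-0.90 ± 0.17). All 3 genes were highest in untreated replicate 1 and lowest in 24 h replicate 3, and the groups did not overlap. The phosphatase CDC25C, which removes the inhibitory phosphate from CDK1, went from 53, 46.2 and 46.6 CPM to 33.0, 33.4 and 26.3 CPM (-0.65 ± 0.11, edgeR adjusted p = 0.0199). DLGAP5, a spindle microtubule protein, went from 227, 229 and 221 CPM to 165, 142 and 123 CPM (-0.66 ± 0.11), and CDCA3, an adaptor for degradation of mitotic inhibitors, from 203, 148 and 178 CPM to 114, 105 and 90.4 CPM (-0.77 ± 0.14). CDC25C and CDCA3 are overlapped on the opposite strand over 8.78% and 9.71% of their exonic bases. The other 9 called members were AURKA, BIRC5, CCNB2, CKS2, GTSE1, HMMR, PTTG1, TPX2 and UBE2C, with changes from -0.56 for HMMR, a spindle protein, to -0.92 for UBE2C, the ubiquitin-conjugating enzyme of anaphase. FOXM1, the transcription factor of these genes, had 659, 559 and 547 CPM and 469, 378 and 302 CPM, and CDK1 had 309, 217 and 228 CPM and 210.4, 198 and 174 CPM. Both were called only with the block (edgeR adjusted p = 0.000908 and 0.0242).

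The spindle machinery went the same way, with smaller median changes. Of 26 kinetochore and checkpoint genes, 2 were called lower without the block and 20 with it, and 0 higher in either, with a median of -0.40. CENPA, the histone of centromeres, had 92.2, 65.6 and 68.5 CPM and 49.9, 47.2 and 36.8 CPM (-0.76 ± 0.15, edgeR adjusted p = 0.0289), and the checkpoint kinase BUB1 had 280.4, 283 and 277 CPM and 227, 197 and 162 CPM (-0.52 ± 0.12). Of 12 mitotic kinesins, the motors of the spindle, 3 were called lower without the block, KIF18A (-0.50 ± 0.10), KIF20A (-0.60 ± 0.13) and KIF4A (-0.56 ± 0.13), and 8 with it. KIF20A had 486, 566 and 518 CPM and 391, 363 and 283 CPM. In all 3 kinesins the lowest library was 24 h replicate 3. TUBA1C, an alpha-tubulin near-identical to other family members, had one of the 5 largest falls in CPM, from 1541, 889 and 886 CPM to 704, 510.1 and 447 CPM (-1.0 ± 0.24), and its share of reads among the copies and the 25% opposite-strand overlap leave its value uncertain.

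The promoters of mitotic members are shown because many carry the motifs of this gene class. In the 250 bases upstream of the gene start, the cell cycle homology region TTTGAA (either strand) stood in 11 of the 16 called members of the 3 mitotic lists that have a promoter in the RefSeq table (68.8%). It stood in 28 of the 59 tested members (47.5%) and in 12.3% of all tested genes with a promoter. CCAAT (either strand) stood in 16 of the 16 called members, in 47 of the 59 tested (79.7%) and in 41.8% of all tested genes. The motifs were searched separately and can share a letter at their ends, and a match is a description of the sequence. Printed are the 150 bases before the gene start (GRCh38.p14, all on the plus strand) of 4 called genes, PLK1 at chr16:23678739-23678888, CKS2 at chr9:89311045-89311194, CCNB2 at chr15:59104996-59105145 and CDC20 at chr1:43358831-43358980, with both motifs in capitals on either strand.
PLK1: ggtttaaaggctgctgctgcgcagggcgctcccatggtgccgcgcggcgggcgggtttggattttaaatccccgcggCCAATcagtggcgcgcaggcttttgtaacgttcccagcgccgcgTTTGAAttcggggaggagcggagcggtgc
CKS2: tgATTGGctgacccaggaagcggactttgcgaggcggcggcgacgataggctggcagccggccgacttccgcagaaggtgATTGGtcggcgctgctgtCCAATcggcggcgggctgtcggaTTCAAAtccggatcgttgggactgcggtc
CCNB2: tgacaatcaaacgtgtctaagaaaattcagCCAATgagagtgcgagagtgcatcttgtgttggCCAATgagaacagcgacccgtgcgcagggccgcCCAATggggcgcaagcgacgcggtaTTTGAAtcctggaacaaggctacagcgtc
CDC20: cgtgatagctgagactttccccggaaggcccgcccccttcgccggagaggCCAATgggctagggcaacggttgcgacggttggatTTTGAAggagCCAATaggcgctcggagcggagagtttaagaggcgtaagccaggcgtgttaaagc
TTTGAA or its complement TTCAAA began 29 bases before the gene start in PLK1, CKS2 and CCNB2, and 65 bases before it in CDC20. A CCAAT or ATTGG lay upstream of it in each, the nearest beginning 52, 73, 54 and 100 bases before the start in CKS2, PLK1, CCNB2 and CDC20. CDC20 held a further CCAAT downstream of it, 55 bases before the start. CKS2, a small subunit of cyclin-dependent kinases, had 146, 99.6 and 95.3 CPM and 67.2, 68.3 and 62.3 CPM (-0.78 ± 0.15, edgeR adjusted p = 0.0267), and the B-type cyclin CCNB2 had 206, 180.1 and 167 CPM and 146, 111 and 99.7 CPM (-0.64 ± 0.14).

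Of 35 tested genes of DNA replication, 2 were called higher and 0 lower without the block (2.47% and 1.77% of all genes), and 12 higher and 2 lower with it (12.6% and 11.6% of all genes). Of 19 tested cyclins, kinases and inhibitors of G1, 3 were called higher and 1 lower, and 3 and 2 with the block. MCM6, a subunit of the replicative helicase, went from 162, 185 and 164 CPM to 282, 244 and 237 CPM (0.58 ± 0.11, edgeR adjusted p = 0.0271), with no overlap between groups. DTL, a ubiquitin ligase receptor of S phase, went from 69.8, 75.5 and 78.1 CPM to 104, 105 and 88.3 CPM (0.41 ± 0.10). The E2F-driven cyclin CCNE2 had 24.3, 34.1 and 31.9 CPM and 58.8, 53.7 and 46.8 CPM (0.82 ± 0.14), with 37.1% opposite-strand overlap, and the transcription factor E2F2 had 21.6, 25.1 and 26.8 CPM and 44.1, 38.7 and 33.7 CPM (0.66 ± 0.13, edgeR adjusted p = 0.0272). In MCM6, CCNE2 and E2F2 the highest library was 24 h replicate 1. CCND1, the growth factor-driven cyclin of G1, went the opposite way, from 1101, 876 and 853 CPM to 685, 576 and 428 CPM (-0.74 ± 0.18, edgeR adjusted p = 0.0442; 10.3% opposite-strand overlap). CDKN1A, the inhibitor p21, had 108, 90.3 and 80.4 CPM and 219.6, 134 and 135 CPM (0.81 ± 0.18, edgeR adjusted p = 0.0358). Its 24 h replicate 1 was well above the other 24 h libraries.

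**Figure D4:**
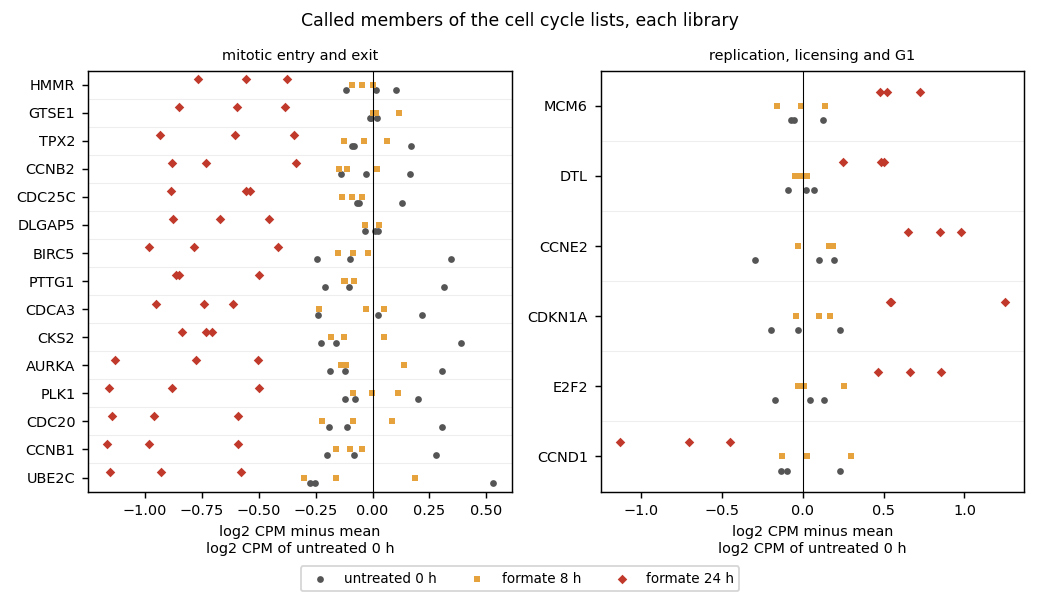
Log2 CPM of each library minus the mean log2 CPM of the untreated libraries for the called genes of mitotic entry and exit (left) and of replication, licensing and G1 (right), with a point per library for untreated 0 h, formate 8 h and formate 24 h. All 15 mitotic genes have their 3 libraries of 24 h left of the untreated ones, as does CCND1, and the other 5 genes on the right have them to the right.

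Among 23 tested targets of p53, 3 were called higher and 0 lower: CDKN1A, ZMAT3, an RNA-binding tumour suppressor (73.6, 86.4 and 85.3 CPM and 139.8, 117 and 116 CPM, 0.60 ± 0.11), and GDF15, a secreted stress cytokine (6.32, 7.66 and 7.92 CPM and 13.8, 10.9 and 13.8 CPM, 0.81 ± 0.18). The list median was 0.26, and 7 were called higher and 2 lower with the block. Among 18 FOXO and growth arrest genes, 3 were called higher and 0 lower, with a median of 0.49, and 12 higher with the block. INSR, the insulin receptor, went from 7.31, 9.24 and 8.05 CPM to 12.4, 14 and 13.0 CPM (0.68 ± 0.13, edgeR adjusted p = 0.0267), MXI1, an antagonist of MYC, from 11.1, 18.2 and 16.5 CPM to 22.7, 26.7 and 28.8 CPM (0.77 ± 0.19), and the mitochondrial superoxide dismutase SOD2 from 17.9, 20.1 and 18.2 CPM to 24.6, 26.7 and 27.7 CPM (0.49 ± 0.10). SOD2 was also the 1 called member of 25 NRF2 and antioxidant genes, beside 4.25% of all genes. With the block 5 of these 25 were called higher and 4 lower, beside 12.6% and 11.6% of all genes. MYC itself went from 25.5, 15.0 and 16.2 CPM to 11.0, 10.4 and 8.70 CPM (-0.91 ± 0.20, edgeR adjusted p = 0.0347).

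Several cytosolic chaperones were lower after 24 h. Of the 26 tested genes of the unfolded protein response and chaperones, 6 were called lower and 0 higher (10 and 0 with the block), and all 6 encode cytosolic heat shock proteins or their partners. HSPA5 and the other endoplasmic reticulum members were not among them. HSPH1, an HSP70 exchange factor (chr13:31134974-31162388, minus strand), had 367, 301 and 292 CPM in untreated replicates 1, 2 and 3 and 171, 178 and 178 CPM at 24 h (-0.86 ± 0.12, edgeR adjusted p = 0.0167). HSPA1A and HSPA1B, the stress-inducible HSP70 genes, changed by -1.35 ± 0.25 and -1.63 ± 0.28. Their coding sequences are near-identical, so the split of reads between them is uncertain, and their alike values cannot show that each gene fell. HSPA1A had 81.2, 50.3 and 52.0 CPM and 16.4, 26.5 and 28.8 CPM, and HSPA1B had 86.3, 48.4 and 55.0 CPM and 12.8, 24.7 and 23.8 CPM. HSPA8, the constitutive HSP70, had the largest fall in mean CPM of the genes named by the rule, from 4260.0, 3026 and 2954 CPM to 1515, 2015 and 1939 CPM (-0.90 ± 0.18, edgeR adjusted p = 0.028). HSP90AA1, the inducible HSP90, had the second largest, from 4207, 3392 and 2982 CPM to 2215, 1947 and 1749 CPM (-0.84 ± 0.16, edgeR adjusted p = 0.0268). For these 5 genes no untreated library overlapped a 24 h library, which the naming rule required. DNAJB1, a J-domain partner of HSP70, changed by -0.79 ± 0.18. A fuller list of heat shock chaperones was written after these values were seen. Of its 27 tested members, 12 were called lower and 0 higher, with a median of -0.52. With the block 20 were lower and 3 higher, the latter being the heat shock factor HSF2, the small heat shock protein CRYAB and the collagen chaperone SERPINH1. Beside those above, the 12 held DNAJA1 (-0.73 ± 0.14), HSPB8 (-0.80 ± 0.12), BAG2 (-0.52 ± 0.11), BAG3 (-0.62 ± 0.12), CHORDC1 (-0.59 ± 0.14) and STIP1 (-0.54 ± 0.13), which act as co-chaperones or small heat shock proteins. CALM2, a calmodulin gene, was among the 5 largest falls in CPM (1330.0, 1011 and 951 CPM and 806, 718 and 614 CPM, -0.62 ± 0.15).

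THBS1, thrombospondin 1 (chr15:39581079-39599466, plus strand), was among the 5 largest falls in mean CPM. It had 2631, 1752 and 1734 CPM in untreated replicates 1, 2 and 3 and 1009.6, 633 and 336 CPM at 24 h (-1.63 ± 0.37, edgeR adjusted p = 0.0359; 7.58% opposite-strand overlap). PTHLH, a secreted parathyroid hormone-like peptide, had 47.1, 13.7 and 19.0 CPM and 6.39, 3.97 and 3.19 CPM (-2.55 ± 0.52; 10.5% opposite-strand overlap). By fitted change PTHLH, IL11, STC2, CPA4, MYPN, SH3RF2, RTL9, LINC00707 and RPSAP52 were among the 10 largest falls of called genes with a mean of at least 5 CPM and no overlap between the groups. In both genes untreated replicate 1 was the highest library, and in PTHLH it was more than 2-fold above the other untreated ones. IL11, a cytokine of the IL-6 family, went from 71.3, 23 and 39.1 CPM to 18.1, 9.58 and 9.99 CPM (-1.82 ± 0.43, edgeR adjusted p = 0.0394), and STC2, a secreted stanniocalcin and ATF4 target, from 79.7, 49.2 and 47.8 CPM to 21.4, 14.3 and 7.75 CPM (-2.03 ± 0.35, edgeR adjusted p = 0.0199). CPA4, a secreted carboxypeptidase, went from 25.8, 11.1 and 13.5 CPM to 6.60, 3.41 and 1.45 CPM (-2.13 ± 0.52). MYPN, a sarcomere protein and target of serum response factor, changed by -2.25 ± 0.39, SH3RF2, a ubiquitin ligase, by -1.86 ± 0.37 and RTL9, a retrotransposon-derived gene, by -1.68 ± 0.32. Among noncoding genes, LINC00707 changed by -2.07 ± 0.39 and RPSAP52 by -2.76 ± 0.58. RPSAP52 had the largest fall of called genes with a mean of at least 5 CPM, from 23.8, 7.08 and 7.83 CPM to 3.0, 1.90 and 0.788 CPM, and as a pseudogene of a ribosomal protein gene its counts are uncertain.

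By list, matrix genes went both ways. Of 27 TGF-beta and BMP genes, 3 were called lower, among them THBS1 and the ligand BMP4 (-0.67 ± 0.16), and 1 higher, THBS2 (0.75 ± 0.18), and the list median was -0.05. With the block 6 were called higher and 7 lower. Of 28 collagens and matrix glycoproteins, 5 were called higher and 7 lower with the block. Without it 2 were called, both lower, COL6A3 from 8.44, 10.4 and 13.2 CPM to 4.10, 3.71 and 3.77 CPM (-1.47 ± 0.18, edgeR adjusted p = 0.0149) and the transmembrane collagen COL13A1 (-0.80 ± 0.17). Laminins, the sheet-forming proteins of basement membranes, went both ways: LAMA4 (342, 442 and 471 CPM and 588, 678 and 731 CPM, 0.67 ± 0.14), LAMC1 (509, 676 and 658 CPM and 919, 931 and 907 CPM, 0.58 ± 0.13) and LAMA5 (1.01 ± 0.24) rose and LAMB3 fell (43.6, 26.2 and 33.4 CPM and 17.0, 15.5 and 17.4 CPM, -1.04 ± 0.19). The fibronectin receptor subunit ITGA5 fell (-0.49 ± 0.12). With the block 6 of the 21 integrins and laminins were called higher and 3 lower. Among 20 metalloproteinases and inhibitors, the membrane-anchored MMP17 rose (0.56 ± 0.13) and ADAM19, a sheddase, fell (-0.55 ± 0.12), as did MMP24 (-1.20 ± 0.28; 21.8% opposite-strand overlap). With the block 7 were higher and 3 lower.

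Targets of the mechanically controlled factors YAP and TEAD had a median of -0.30 over 23 tested members. NT5E, the surface 5'-nucleotidase CD73, fell from 571, 434 and 448 CPM to 274, 221 and 207 CPM (-1.05 ± 0.16, edgeR adjusted p = 0.017), and AJUBA, a LIM protein of cell junctions, from 71.1, 45.3 and 43.3 CPM to 22.6, 24.0 and 16.9 CPM (-1.33 ± 0.24), while RBMS3, an RNA-binding protein, rose (0.69 ± 0.15). With the block 11 were called lower and 2 higher. The classical target CCN1 had 165, 72.3 and 78.1 CPM and 55.4, 41.5 and 20.4 CPM and was called only with the block (edgeR adjusted p = 0.000295). CCN2 had 125, 104 and 104 CPM and 111, 82.8 and 44.9 CPM, with groups that overlapped, and it too passed only with the block (edgeR adjusted p = 0.0445). Of 29 genes of the actin cytoskeleton and serum response factor, 4 were called lower and 0 higher, with a median of -0.29, and 13 lower and 2 higher with the block. Besides MYPN these were TAGLN, the smooth muscle protein SM22 (13.9, 6.55 and 8.27 CPM and 3.34, 3.49 and 4.19 CPM, -1.37 ± 0.30; 11.4% opposite-strand overlap), FHL2, a LIM cofactor (262, 187 and 177 CPM and 154, 117 and 107 CPM, -0.73 ± 0.17), and ACTG2, which stayed under 1 CPM. The Notch pathway had a median of 0.18. With the block 3 of its 17 members were called higher and 3 lower, beside 12.6% and 11.6% of all genes. Without it 2 were called lower and 0 higher: the ligand JAG1 (122, 99.8 and 119 CPM and 70.2, 58.1 and 58.7 CPM, -0.87 ± 0.18) and MFNG, a glycosyltransferase of Notch receptors (-1.31 ± 0.20).

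Across the lists, the mitotic one had the lowest median. Leaving out replicate 1 of all groups, without the block, called 2616 of 15470 tested genes. In that setting 10 members of sterol synthesis were called higher, and of fatty acid synthesis 10 higher and 1 lower. Mitotic entry and exit had 29 called lower, heat shock chaperones 18 lower and 1 higher, and myelinating glia 13 higher and 1 lower. With the 6 libraries alone 124 of 15038 tested genes were called. Of these calls 6 were for sterol synthesis, 5 for fatty acid synthesis, 1 for mitotic entry and exit, 5 for the chaperones and 1 for myelinating glia. The list counts of both settings are to be read against these totals over all genes. A list of proteasome subunits, also written after values were seen, had 4 of 31 members called lower and 28 with the block, with a median of -0.49. In the heat shock and proteasome lists pair 1 gave the largest fall (-0.79 and -0.63), whereas in the mitotic, kinetochore and kinesin lists pair 3 did (-0.74, -0.59 and -0.70). For sterol synthesis the 3 pairs gave 0.36, 0.42 and 0.42, and for fatty acid synthesis 0.45, 0.50 and 0.31.

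**Figure D5:**
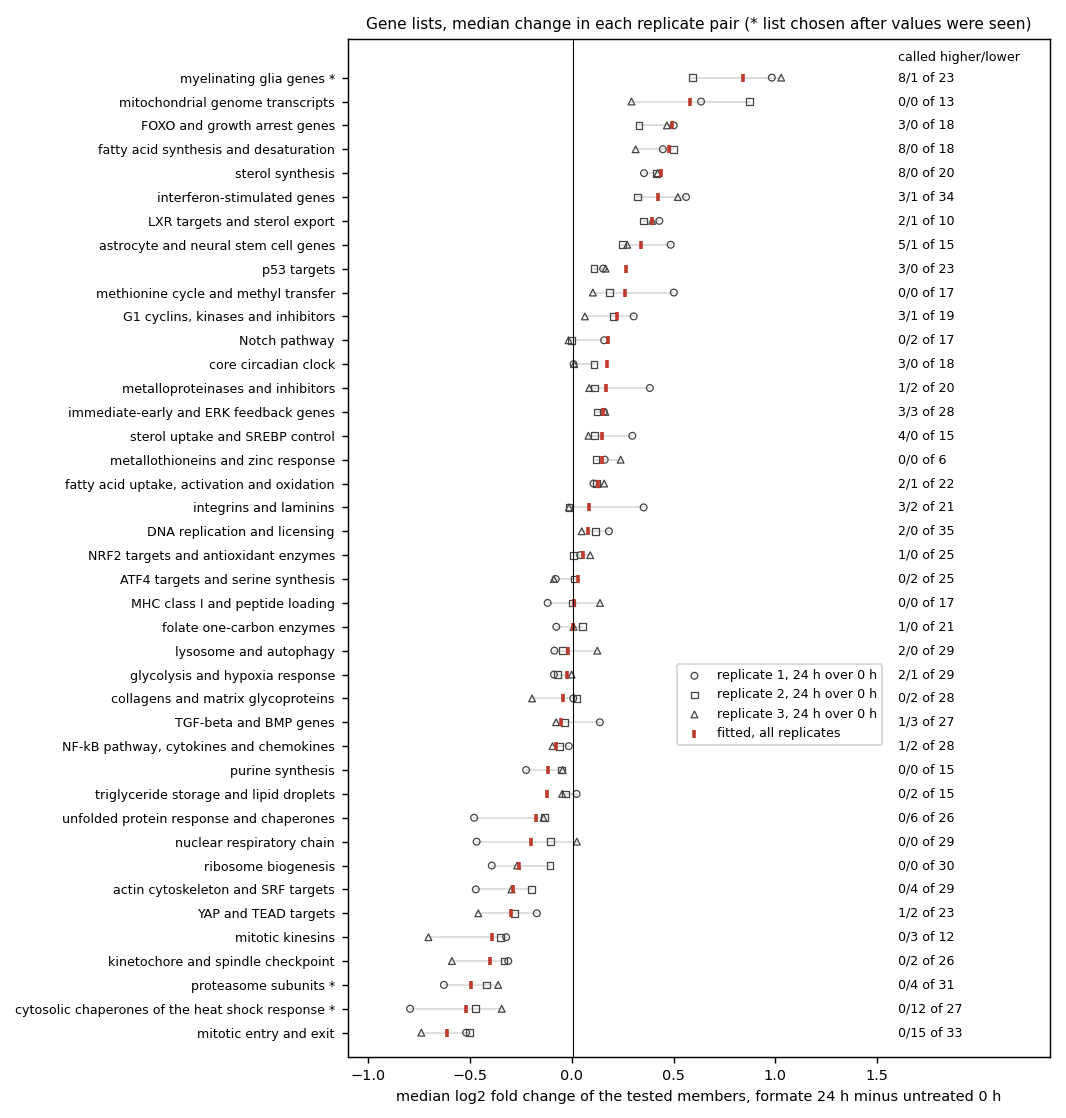
Median log2 fold change of the tested members of each gene list, formate 24 h minus untreated 0 h. Open symbols are the medians within replicate pairs 1, 2 and 3, red ticks the medians of the fitted changes, and the vertical line the median over all genes tested. The text at the right gives the members called higher and lower of those tested, without the replicate block.

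Interferon-stimulated genes had a median of 0.42 over 34 tested members, with 3 called higher and 1 lower, and 16 higher and 1 lower with the block. TRIM22, an antiviral ubiquitin ligase, had 11.8, 13.2 and 16.1 CPM and 21.1, 22.5 and 23.2 CPM (0.70 ± 0.15, edgeR adjusted p = 0.0311), and IFIH1, the RNA sensor MDA5, had 5.85, 6.35 and 6.81 CPM and 10.1, 10.7 and 12.1 CPM (0.79 ± 0.18, edgeR adjusted p = 0.0345). MX2, a dynamin-like antiviral GTPase, changed by 1.29 ± 0.32, and OASL, an OAS-like protein, fell by 1.21 on the log2 scale (SE 0.30). IFIT2, an RNA-binding effector, had 3.21, 8.78 and 8.27 CPM and 14.4, 19.7 and 30.4 CPM and was called only with the block (edgeR adjusted p = 0.00028). For the 17 genes of MHC class I and peptide loading the median was 0.01, and edgeR called 0 without the block (3 at an unadjusted p under 0.05, 0 by DESeq2 and by limma-voom) and 3 with it, beside 24.1% of all genes. Among 28 NF-kB, cytokine and chemokine genes, ICAM1, an adhesion molecule for leukocytes, rose from 18.7, 20.9 and 19.5 CPM to 29.5, 27.9 and 35.3 CPM (0.65 ± 0.11; 23.6% opposite-strand overlap), and IL11 and the inhibitor of apoptosis BIRC3 (-1.0 ± 0.23) fell. With the block 4 were called higher and 7 lower.

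Of 28 feedback genes of ERK signalling and immediate-early factors, 3 were called higher and 3 lower without the block, and 10 higher and 6 lower with it. SPRY4, an inhibitor of receptor tyrosine kinase signalling, had 78.4, 142 and 127 CPM and 240.3, 333 and 341 CPM (1.40 ± 0.23, edgeR adjusted p = 0.0199), the highest untreated value being well below the lowest of 24 h. EGR1, a zinc finger factor, changed by 0.75 ± 0.17 and the ERK phosphatase DUSP6 by 0.41 ± 0.10 (40.5% opposite-strand overlap). FOSL2, an AP-1 subunit, went from 48.7, 42.1 and 41.4 CPM to 30.4, 23.7 and 21.4 CPM (-0.81 ± 0.17, edgeR adjusted p = 0.0304), and KLF4 changed by -0.79 ± 0.19, with MYC the remaining fall. Of 18 clock genes, 3 were called higher and 0 lower, and 5 higher and 2 lower with the block. The repressors NR1D2 (27.7, 44.8 and 34.0 CPM and 64.9, 66.2 and 62.9 CPM, 0.86 ± 0.16) and NR1D1 (5.89, 8.70 and 5.44 CPM and 11.8, 13.3 and 13.0 CPM, 0.92 ± 0.23; 9.49% opposite-strand overlap) encode REV-ERB beta and alpha, and BHLHE40 (0.52 ± 0.13) encodes DEC1.

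Glycolytic and hypoxia genes had a median of -0.02 over 29 members, with 2 called higher and 1 lower, and 7 and 7 with the block. The glucose transporter SLC2A1 fell from 280.4, 244 and 233 CPM to 187, 129 and 107 CPM (-0.84 ± 0.18, edgeR adjusted p = 0.0316), while HK2, a hexokinase (0.39 ± 0.09), and PDK1, which inhibits pyruvate dehydrogenase (0.51 ± 0.11), rose. All 13 protein-coding transcripts of the mitochondrial genome had positive fitted values, with a median of 0.58. edgeR called 0 of them without the block (8 at an unadjusted p under 0.05, 2 by DESeq2 and 0 by limma-voom), and 12 higher with it. MT-ND4, a subunit of complex I, had 1699, 1749.9 and 2705 CPM and 3124, 3351 and 3363 CPM (0.68 ± 0.22, edgeR adjusted p = 0.094 without and 0.00485 with the block). Its untreated replicate 3 was well above untreated replicates 1 and 2. The nuclear genes of the respiratory chain had a median of -0.20 over 29 members, with 0 called by edgeR without the block (5 at an unadjusted p under 0.05, 0 by DESeq2 and by limma-voom) and 5 lower with it. Among 29 lysosome and autophagy genes, MAP1LC3A, an LC3 protein of autophagosomes (5.85, 6.31 and 5.49 CPM and 9.26, 10.2 and 13.2 CPM, 0.89 ± 0.20), and WIPI1, an early autophagy protein (0.59 ± 0.14; 28.1% opposite-strand overlap), were called higher. With the block 3 were higher and 3 lower, beside 12.6% and 11.6% of all genes. Of 25 ATF4 targets and serine synthesis genes 4 were called higher and 4 lower with the block, beside 12.6% and 11.6% of all genes. Without it 2 were called lower and 0 higher, STC2 and the transcription factor ATF5 (-0.67 ± 0.16; 21.2% opposite-strand overlap).

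Of 21 tested enzymes and transporters of folate metabolism, which handle formate and its carbon, 1 was called without the block, beside 4.25% of all genes. This was SHMT1, the cytosolic serine hydroxymethyltransferase, which rose from 59.8, 61.5 and 55.2 CPM to 81.8, 81.6 and 84.1 CPM (0.49 ± 0.11, edgeR adjusted p = 0.0345). The list median was 0.01, and with the block 3 were called higher and 4 lower, beside 12.6% and 11.6% of all genes. MTHFD1, the cytosolic enzyme that joins formate to tetrahydrofolate, had 219.7, 193 and 173 CPM and 215, 196 and 174 CPM. The groups overlapped, with group means almost equal (edgeR adjusted p = 0.992; 11% opposite-strand overlap). MTHFD1L, which releases formate in mitochondria, had 125, 77.5 and 73.6 CPM and 71.6, 54.4 and 49.5 CPM and was called lower only with the block (edgeR adjusted p = 0.0865 without and 0.000911 with it). MTHFD2, the mitochondrial dehydrogenase upstream of it, had 152, 115 and 113 CPM and 142, 119.6 and 97.7 CPM (-0.08 ± 0.16), with 33.2% opposite-strand overlap. ALDH1L2, which oxidises formyl-tetrahydrofolate in mitochondria, had 7.68, 12.8 and 12.7 CPM and 17.5, 18.3 and 16.0 CPM and was called higher only with the block (edgeR adjusted p = 0.0116). Of the importers of folate, SLC19A1 had 73.9, 39.9 and 40.8 CPM and 41.5, 29.1 and 31.0 CPM and was called lower with the block (edgeR adjusted p = 0.00232; 14% opposite-strand overlap), and SLC46A1 (fitted 0.40; 61.5% opposite-strand overlap) was not called in either fit.

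Of 15 purine synthesis genes, 0 were called by edgeR without the block (2 at an unadjusted p under 0.05, 0 by DESeq2 and by limma-voom) and 2 with it, PPAT (0.26), the first committed enzyme, and the salvage enzyme HPRT1 (-0.32). The share of all genes called with the block was 24.1%. GART, which uses formyl-tetrahydrofolate in the purine ring, had 173, 153 and 147 CPM and 173, 158 and 154 CPM (0.04 ± 0.10), and ATIC, which uses it again, had 276, 196 and 192 CPM and 203, 188 and 178 CPM (-0.22 ± 0.14). Of 17 genes of the methionine cycle and methyl transfer, 0 were called by edgeR without the block (8 at an unadjusted p under 0.05, 4 by DESeq2 and 0 by limma-voom) and 7 with it, all higher. MTR, methionine synthase, had 82.9, 80.5 and 85.2 CPM and 117, 99.1 and 91.4 CPM, and DNMT3A, a DNA methyltransferase, had 20.7, 31.8 and 29.3 CPM and 35.5, 41.9 and 42.7 CPM (edgeR adjusted p = 0.0384 and 0.00166 with the block).

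At 8 h the values of these genes were close to those at 0 h. In the comparison of 8 h with 0 h, which shares the untreated libraries, edgeR called 0 of 15273 genes without the block. In that fit 79 genes had an unadjusted p under 0.05. Neither the block nor another tool was used on this comparison, so it is to be read beside the 24 h calls without the block. SCD had 153, 258 and 252 CPM at 8 h, HSPA8 3729, 3145 and 2802 CPM and CCNB1 488, 471 and 451 CPM, in replicates 1, 2 and 3. Replicate 1 was again the lowest of the 3 for SCD and the highest for HSPA8 and CCNB1, as it was at 0 h. Placed between the means of 0 h (0%) and 24 h (100%) on the log2 scale, the called genes had a median position of -17.3%, 17.9% and 10.7% in 8 h replicates 1, 2 and 3, and of -28.9%, 17.3% and 12.6% in the untreated replicates. The comparison of 24 h with 8 h, which shares the 24 h libraries, called 696 genes (4.56%) without the block. In the 24 h replicates the median position was 80.3%, 103% and 117%. Of the 24 h libraries replicate 1 was thus the nearest to the untreated mean.

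Among the called genes named here, SCD, FADS2, FABP7, GJA1, SOD2, HK2, SHMT1, HSPA8, DNAJB1, DNAJA1, STIP1, CALM2, MARCKSL1, KLF4, CDC20, CCNB2, AURKA, UBE2C, DLGAP5 and BUB1 have annotated pseudogene copies, and reads shared with them would move their counts. Opposite-strand genes, not yet named beside the values, overlap 44.2% of the exonic bases of BAG2, 18.6% of FDPS and 15.9% of FOXM1. They also overlap 8.6% of PMP22, 8.34% of CCN2, 6.21% of DNAJB1 and 5.05% of KIF20A. Among genes named by the rule, same-strand genes overlap 36.5% of the exonic bases of HSPA1B, 16.6% of LINC00707 and 10.7% of TRIM22. For CENPA, RBMS3 and SOD2 the same-strand share is 6.96%, 5.61% and 5.12%. Reads from these bases cannot be told apart by strand, and such shares are not given for other genes.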

How the data were processed

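Messenger RNA of LN229 cells was sequenced in 9 libraries with a stranded kit, per the labels' protocols. The submitters' processing notes name bcl2fastq 2.20.0.422, STAR 2.7.4a and the build GRCh38, and the counting program, its annotation and its strand setting are not given in the sources used here. The deposited table holds whole-number counts per Ensembl gene, not normalized, for 23727 genes. Symbols for 23619 of them came from the reference table of Ensembl identifiers and 101 more from GENCODE release 29, which also gave the coordinates and the share of exonic bases overlapped on the opposite strand, named from 5%. Promoters came from RefSeq (GRCh38.p14).

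Counts were filtered with filterByExpr, scaled by TMM and fitted over all 9 libraries with edgeR 4.0.16 in R 4.3.3 (quasi-likelihood test, Benjamini-Hochberg adjustment over 15273 genes, threshold 0.05). The 8 h libraries entered the filter, the scaling and the estimate of the spread. CPM values are counts divided by the TMM-scaled library size. The fit without the block was tested on simulated data for the comparison of 24 h with 0 h over 15273 genes. It recovered 22 of 67 genes changed 1.5-fold, 42 of 67 changed 2-fold and 66 of 66 changed 4-fold. It called 4 unchanged genes, and the fit with the block called 8. The simulated counts held no replicate effect and no library that stood apart, so they do not measure recovery in libraries such as these. Replicate numbers come from the labels. Deviations of same-numbered libraries of 0 h and 24 h from their group means correlated across genes at 0.367, 0.164 and 0.251, so the numbers were taken as pairs, although untreated replicate 3 correlated at 0.270 with 24 h replicate 2.

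Genes named were called, had a mean of at least 5 CPM over the 6 libraries and did not overlap between groups. They were the 10 largest rises and falls, the 5 largest rises and falls in mean CPM, and up to 3 called members with the smallest p of each of 38 gene lists. Other members are given to complete a pathway. Some genes that meet the rule or belong to a list are counted but not reported by name here. The comparison and the lists were chosen with earlier results of these data known, and 3 further lists after values were seen. Alternatives were DESeq2 1.42.0, limma-voom 3.58.1, other scalings and filters, the block, and leaving out libraries.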

Additional observations from a re-analysis of the deposited data

Results flagged for a closer look

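The change at 24 h and that at 8 h are measured against the same untreated libraries, so their difference is the comparison of 24 h with 8 h. Of the 649 genes called at 24 h, 507 also passed edgeR's quasi-likelihood test of that difference, and so did 85 of the 94 genes named by the rule. The 24 h libraries that chose these genes also enter that test. At 8 h against 0 h edgeR called 0 genes without the block (79 at an unadjusted p under 0.05). The 507 and the 85 are therefore a description and no independent support. DHCR7, a cholesterol synthesis enzyme, had 62.4, 69.5 and 69.1 CPM in 8 h replicates 1, 2 and 3 and 121, 125 and 131 CPM at 24 h (edgeR adjusted p = 0.00908). COL6A3, a collagen chain, had 13.5, 10.8 and 12.9 CPM and 4.10, 3.71 and 3.77 CPM (edgeR adjusted p = 0.00869), and HSPH1, an HSP70 exchange factor, had 353, 303 and 273 CPM and 171, 178 and 178 CPM (edgeR adjusted p = 0.0171).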

How the results depend on the processing

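The number of called genes, 649, of which 202 changed at least 2-fold, depended most on how replicates entered the fit. With the replicate block, which uses the pairing by number, it was 3687 and 485, and with the block on the 6 libraries alone 1900 and 398. Without the block the 6 libraries alone gave 124 and 68. Leaving out single libraries without the block gave 0 to 899 calls and 0 to 355 of at least 2-fold, with 0 from leaving out 24 h replicate 2 or 3. With the block, leaving out untreated replicates 1, 2 and 3 gave 3816, 2339 and 3815 calls, of which 452, 497 and 543 were at least 2-fold. Leaving out 24 h replicates 1, 2 and 3 gave 2213, 2518 and 2482 with the block, and 418, 546 and 416 of at least 2-fold. For the 8 h replicates the block gave 3404, 2933 and 2746, and 490, 497 and 473. Leaving out a replicate number from all groups was added after seeing the data. It gave 2616, 0 and 0 calls (378, 0 and 0 of at least 2-fold) without replicates 1, 2 and 3, and with the block 3991, 1387 and 2590 (457, 465 and 480). DESeq2's Wald test called 1656 genes. Requiring a mean of at least 5 CPM left 89 of at least 2-fold, out of fewer genes tested. DESeq2 size factors, library totals without TMM, no low-count filter and limma-voom gave 521 to 869 calls. Library totals moved the median of all genes from 0.01 to 0.08 on the log2 scale. The cause of these differences was not tested.

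None of the 94 named genes reversed its direction in any of these settings in which it was tested. The rule named only called genes without overlap between groups, so leaving out libraries was unlikely to reverse any, and this is no independent support. With a mean of at least 5 CPM required, 89 passed the threshold, 3 did not and the rest were not tested. With the block all 94 passed, as did all 649 called genes. Without it 35 passed with the 6 libraries alone, and 0 when 24 h replicate 2 or 3 was left out. The lack of untreated cells at 24 h among these libraries, 3 libraries per group and an unstated counting strand limit all results.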

Other observations

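Ribosome biogenesis and the proteasome, which supply and clear proteins, had negative medians. Of 30 tested genes of ribosome biogenesis, edgeR called 0 without the block (7 at an unadjusted p under 0.05, 1 by DESeq2 and 0 by limma-voom) and 13 lower with it, and their median was -0.26. NPM1, the nucleolar histone chaperone, had 1329, 892 and 839 CPM in untreated replicates 1, 2 and 3 and 882, 752 and 699.7 CPM at 24 h (edgeR adjusted p = 0.184 without and 0.018 with the block). Of the 31 proteasome subunits, whose list was written after values were seen, 4 were called lower. PSMD11, a lid subunit, had 300.3, 249 and 250.2 CPM and 212, 178 and 161 CPM (-0.54 ± 0.13, edgeR adjusted p = 0.0396; 9.38% opposite-strand overlap), and PSMC6, an ATPase of the base, had 125, 95.2 and 93.5 CPM and 77.9, 75.8 and 72.7 CPM (-0.47 ± 0.12). The ATPase PSMC1 changed by -0.64 ± 0.15, but 75.8% of its exonic bases are overlapped on the opposite strand.

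The metallothionein MT1X, a metal-binding protein, was called higher only with the block (edgeR adjusted p = 0.031), at 4.48, 4.58 and 4.51 CPM and 6.01, 6.13 and 6.92 CPM. Of 6 tested metallothionein and zinc genes, edgeR called 0 without the block (2 at an unadjusted p under 0.05, 0 by DESeq2 and by limma-voom) and 2 with it.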
